A study of Mus musculus with 8 samples.

Results

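The liver is the main site where surplus amino acids are broken down and where their nitrogen is turned into urea. A set of 47 enzymes of the urea cycle and of amino acid catabolism was chosen by function, with earlier results of these data known. It was followed in mouse liver with and without Tob1, before and after partial hepatectomy. For each enzyme the probe set (a group of probes to one transcript) annotated with exactly 1 gene symbol and with the highest mean over the arrays was taken, and 42 of the 47 enzymes were measured this way among 14450 genes tested. All 42 passed the filter on low signal. Gls2, Acmsd, Sds, Sdsl and Amt were not analysed here.

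Livers came from male C57BL/6 mice of 7 to 10 weeks, either wild type or Tob1 null on the same background. Tob1 encodes an antiproliferative protein. One pair of groups was taken at 0 h, from unoperated liver, and the other pair at 24 h after removal of the median and left lateral lobes under 60 mg/kg ketamine and 7 mg/kg xylazine. Each of the 4 groups had 2 arrays, each of a different pool of 3 animals. The spread between arrays thus holds the differences between pools and the technical variation together. No sham-operated group was analysed, so at 24 h the removal of tissue and the effects of surgery and anaesthesia cannot be told apart. Levels are quantile normalised log2 signals, on which a difference of 1 is a 2-fold change, and a gene is said to rise or fall only at a Benjamini-Hochberg adjusted p under 0.05 in limma's moderated test. Errors are standard errors of the fit.

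Replicate arrays correlated at 0.951 to 0.959 over the deposited values, before normalisation and filtering, of all probe sets but the controls. The brightest Tob1 probe set read 10.46 and 10.53 in wild type and 11.10 and 11.03 in Tob1 null liver at 0 h, so this probe set did not mark the deletion. A dim second probe set read 5.19 and 4.02 in wild type and 2.65 and 4.06 in Tob1 null liver at 0 h, and 4.27 and 4.96 against 2.78 and 3.83 at 24 h, lower on average in Tob1 null liver but not past the test (adjusted p = 0.595 and 0.54). The parts of Tob1 that they read are not known here, and the animals are called null-labelled. The hepatocyte marker list (6 of 8 measured, none low) summed to 52180 to 55070 linear units in wild type at 0 h and 57250 to 61140 at 24 h. In null-labelled liver the sums were 54040 to 54650 at 0 h and 54480 to 58050 at 24 h. They rest mainly on very bright genes such as Alb, Apoa1 and Ttr. Quantile normalisation holds the brightest signals alike between arrays, so these sums cannot show whether hepatocyte content changed. The summed level of 8 leucocyte markers ran from 221.4 to 266.7 at 0 h and from 260.6 to 767.5 at 24 h, and that of 9 macrophage markers from 2198 to 2503 at 0 h and from 1895 to 2756 at 24 h. From 0 h to 24 h, averaged over both genotypes, 2 macrophage markers rose (Marco by 4.07 and Cd68 by 1.26 on the log2 scale). The 3 that fell were Clec4f (-0.59), Adgre1 (-0.52) and Csf1r (-0.71). Of the leucocyte markers 2 rose (S100a8 by 2.88 and S100a9 by 2.25) and 2 fell (Cd79a at -0.37 and Nkg7 at -0.92). Over all genes 13.8% rose and 15.0% fell in this average. Of 9 stellate and fibroblast markers 3 fell (Reln, Col3a1 and Des), and Pecam1 of 9 endothelial and Sox9 of 4 measured duct markers rose. The summed duct markers ran from 63.2 to 125.3 at 0 h and from 122.1 to 262.8 at 24 h. Summed endothelial markers at 0 h were 1753 to 1803 in wild type and 1165 to 1471 in null-labelled liver. At 24 h they were 1280 to 1605 and 1428 to 1642. At 0 h 8 of the 9 were lower on all null-labelled arrays than on all wild type ones (23.9% of all genes), and 0 passed. Within the hepatocyte list Fgb rose and Hnf4a fell. Marco, S100a8, Cd3g, Ms4a1, Nkg7, Col1a1, Krt19, Krt7 and Epcam were below the filter limit on at least 1 array. The log2 signal of the actin control at the 3′ end over that at the 5′ end, a sign of RNA integrity, was 1.04 to 1.40 in wild type at 0 h, 0.91 to 1.04 in wild type at 24 h, 1.54 to 1.59 in null-labelled liver at 0 h and 1.22 to 1.32 in null-labelled liver at 24 h. The part of these markers and ratios in the changes below was not tested. In whole liver RNA, fewer hepatocytes and less RNA of a gene per hepatocyte cannot be told apart.

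Catabolism of most amino acids begins with removal of the amino group, by a transaminase or a specific ammonia lyase, and the carbon skeleton then enters central metabolism. Ammonia and the nitrogen of aspartate enter the urea cycle, which starts in the mitochondria of hepatocytes around the portal vein and ends in the cytosol with arginase. Many of these enzymes are made mainly in hepatocytes, respond to glucagon, glucocorticoids and dietary protein, and are used as signs of the mature hepatocyte.

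Most of the enzymes were lower 24 h after hepatectomy, in both genotypes. Averaged over both genotypes (the mean response, 4 arrays against 4), 28 of the 42 fell and 4 rose, while over all genes tested 28.8% were called, 15.0% lower and 13.8% higher. The median mean response of the 42 was -0.69, against -0.04 over all genes. Every 24 h array lay below every 0 h array for 29 of the enzymes and above it for 5, and over all genes these shares were 16.5% and 15.0%. The falls were at least 2-fold for 13 enzymes. The only rise of that size was Mat1a. Each wild type and null-labelled response, taken alone, called 21 enzymes, 19 lower and 2 higher in each. The background was 9.21% of genes in wild type (5.08% lower, 4.13% higher) and 14.7% in null-labelled liver (7.23% lower, 7.45% higher). The 18 enzymes called in both had the same sign in both. Fits of only the groups compared called 0 enzymes in wild type and 0 in null-labelled liver, among 2 and 0 of all genes. Within wild type the arrays of the times did not overlap for 32 enzymes lower and 5 higher at 24 h (32.7% and 29.4% of all genes), and within null-labelled liver for 31 lower and 6 higher (33.3% and 29.7% of all genes).

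The count of calls in a single genotype changed when an array was left out. It was 0 in wild type without either of its 0 h arrays, 1 without its first 24 h array and 8 without either null-labelled 0 h array, and in null-labelled liver it was 1 without either of its own 0 h arrays and 13 and 6 without its first and second 24 h array. Calls over all genes fell in the same fits, in wild type from 1331 to 7 and 3 without the first and second 0 h array, 23 without the first 24 h array and 295 without either null-labelled 0 h array, and in null-labelled liver from 2121 to 33, 23, 1232 and 468 in the order of its 4 arrays. In the mean response 21 to 30 enzymes were called without 1 array, the fewest without the second null-labelled 0 h array (2364 of all genes, against 4162). Centring on array medians in place of quantile normalisation moved the median of all genes from -0.04 to 0.07 in the mean response and from -0.04 to 0.12 in the null-labelled response, with 2215 genes higher and 1328 lower (1990 and 2172 after quantile normalisation) and 1245 higher and 469 lower (1076 and 1045) respectively. The enzymes then gave 23 falls and 4 rises in the mean response and 14 falls and 2 rises in the null-labelled one.

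**Figure D1:**
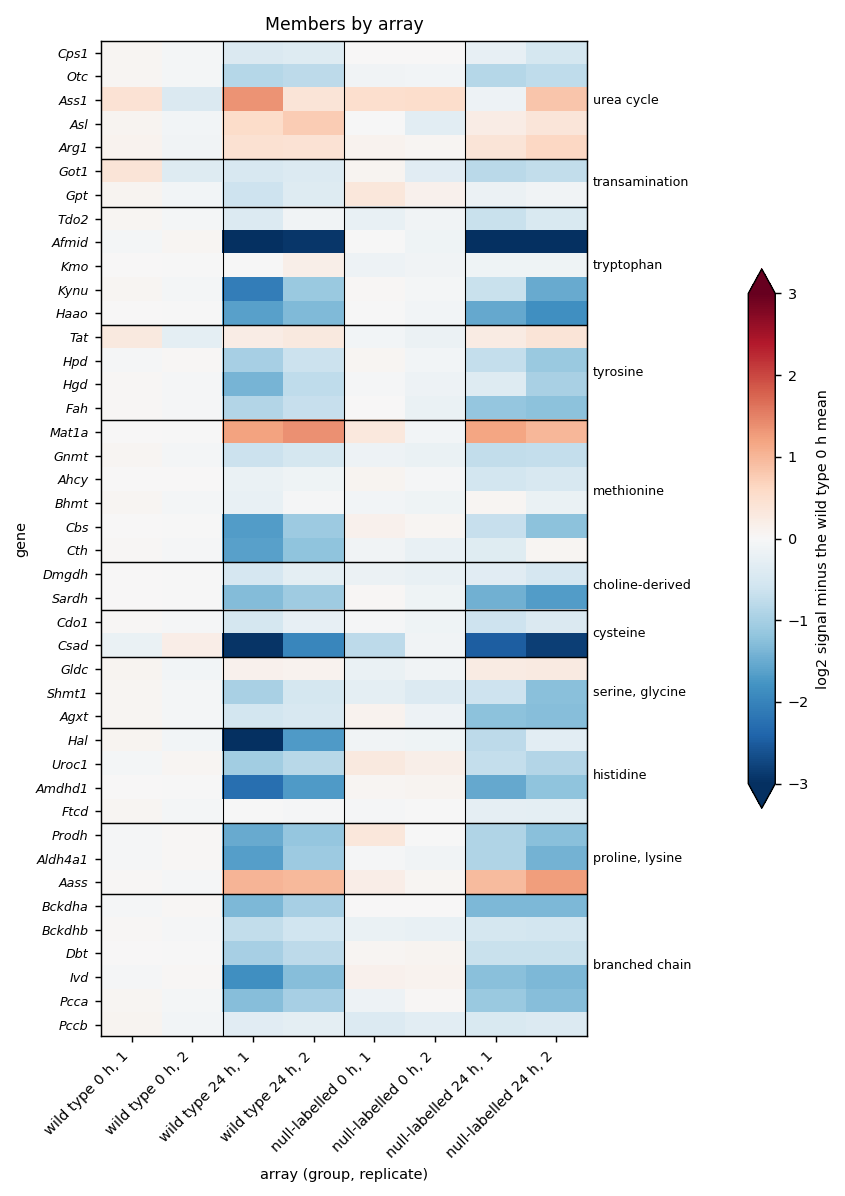
Heat map of the 42 measured enzymes by array, with genes as rows grouped by pathway, arrays as columns (wild type at 0 h and 24 h, then null-labelled at 0 h and 24 h, 2 arrays each) and colour giving the normalised log2 signal minus the gene's wild type mean at 0 h, with the scale clipped at 3 in either direction. Most of the enzymes are lower in the 24 h columns of both genotypes, while Mat1a, Aass, Asl and Arg1 are higher there.

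Promoter sequences are shown for 5 enzymes whose window overlaps no annotated gene span, the 4 with the largest falls among those and the only one that rose, so that windows of enzymes with opposite responses can be read side by side. Whether these bases take part in the responses was not tested. Each is the 150 bases before the annotated start, 5′ to 3′ on the gene's strand, from RefSeq on GRCm38.p6. The positions are chr10:93488618-93488767 (plus strand) for Hal, chr7:84605943-84606092 (minus strand) for Fah, chr1:93135090-93135239 (plus strand) for Agxt, chr5:123182724-123182873 (minus strand) for Hpd and chr6:23132987-23133136 (minus strand) for Aass. Capitals mark matches to the motifs named in the next paragraph.
Hal: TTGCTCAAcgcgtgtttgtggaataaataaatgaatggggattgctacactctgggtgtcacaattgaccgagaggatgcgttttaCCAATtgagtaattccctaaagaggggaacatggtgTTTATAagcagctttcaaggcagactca
Fah: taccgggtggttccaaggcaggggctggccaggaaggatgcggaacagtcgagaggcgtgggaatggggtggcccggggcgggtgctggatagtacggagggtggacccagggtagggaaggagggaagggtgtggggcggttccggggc
Agxt: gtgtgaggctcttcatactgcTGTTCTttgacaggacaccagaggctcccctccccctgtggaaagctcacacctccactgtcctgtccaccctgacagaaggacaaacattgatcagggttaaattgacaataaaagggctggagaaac
Hpd: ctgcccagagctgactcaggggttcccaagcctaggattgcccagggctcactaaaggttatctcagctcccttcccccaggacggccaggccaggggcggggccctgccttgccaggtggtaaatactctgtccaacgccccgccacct
Aass: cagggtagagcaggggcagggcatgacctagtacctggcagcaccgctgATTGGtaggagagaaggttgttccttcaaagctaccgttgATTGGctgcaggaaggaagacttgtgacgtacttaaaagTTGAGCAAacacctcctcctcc

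The search covered the C/EBP core TTGCNNAA, the HNF4 core CAAAGTCCA, the HNF1 core GTTAAT, the glucocorticoid receptor core AGAACA, the CCAAT box CCAAT and the TATA box TATAAA, on both strands, and no 2 printed matches overlap. Hal carries a C/EBP core, a CCAAT box and a TATA box in the window, Agxt a glucocorticoid receptor core, and Aass a C/EBP core and 2 CCAAT boxes, while the letters of none occur in the windows of Fah and Hpd. Over 250 bases before the start, 33 of the 42 enzymes had a promoter in the table. Of the 25 windows of 22 enzymes that fell, 13 held CCAAT (52.0%, against 33.8% of 32851 promoters of that length), 2 held the C/EBP core (8.0% against 9.6%), 3 held the glucocorticoid receptor core (12.0% against 16.1%), 2 the HNF1 core (8.0% against 6.4%), 2 the TATA box (8.0% against 12.4%) and none the HNF4 core (0.4% of all promoters). Among all 36 windows of the 33 enzymes, fallen or not, 19 held CCAAT, a share like that of the enzymes that fell. These are letter matches and do not show binding.

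The urea cycle split by step. Cps1 and Otc, the mitochondrial enzymes that make carbamoyl phosphate and citrulline, fell, whereas the cytosolic Asl and Arg1, which release arginine and then urea, rose. Otc read 12.14 and 12.04 in wild type at 0 h and 11.23 and 11.32 at 24 h, and in null-labelled liver 11.99 and 12.00 at 0 h and 11.23 and 11.34 at 24 h. No array at 24 h reached any array at 0 h. Its mean response was -0.77 ± 0.08 (adjusted p = 0.00353), and its 2 further probe sets fell as well, by 0.86 and 1.70. Cps1 read 12.82 and 12.70, then 12.33 and 12.38 in wild type, and 12.78 and 12.78, then 12.53 and 12.24 in null-labelled liver. Its groups did not overlap either, but the change was smaller, at -0.40 ± 0.10 (adjusted p = 0.0304), and it lost its call under 9 of 18 other settings, with adjusted p up to 0.0988.

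Asl read 10.98 and 10.80 at 0 h and 11.45 and 11.66 at 24 h in wild type, and 10.89 and 10.58 at 0 h and 11.12 and 11.26 at 24 h in null-labelled liver. All arrays at 24 h lay above all at 0 h, with a mean response of 0.56 ± 0.12 (adjusted p = 0.0184). Arg1 rose from 12.57 and 12.38 to 12.94 and 12.91 in wild type and from 12.57 and 12.53 to 12.85 and 13.10 in null-labelled liver, or by 0.44 ± 0.10 (adjusted p = 0.0234). The calls were lost under 7 of 18 other settings for Arg1 (adjusted p up to 0.0771) and 3 of 18 for Asl (up to 0.0631). Cps1, Asl and Arg1 did not pass in the response of either genotype. Ass1, which joins citrulline to aspartate, had only a dim probe set with 1 symbol, at 5.94, 5.09, 6.86 and 5.90 in the wild type arrays and 6.02, 6.04, 5.35 and 6.35 in the null-labelled ones, in order of time. These overlapped between times and did not pass (0.34 ± 0.34, adjusted p = 0.484). A bright probe set shared by Ass1 and Gm5424 read 12.60, 12.45, 11.93 and 12.18 in wild type and 12.55, 12.54, 12.35 and 12.11 in null-labelled liver, and its mean response was -0.40 ± 0.12 (adjusted p = 0.0547 over 30525 probe sets). The signals of Ass1 and Gm5424 cannot be told apart there.

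Of the transaminases, Gpt, which moves nitrogen between alanine and glutamate, fell by 0.43 ± 0.11 (adjusted p = 0.0296) in the mean response. It read 10.34 and 10.17, then 9.63 and 9.88 in wild type, and 10.58 and 10.38, then 10.08 and 10.16 in null-labelled liver. Within each genotype the times did not overlap, and its call was lost under 12 of 18 other settings, with adjusted p up to 0.341. Got1, the cytosolic aspartate transaminase, read 10.35 and 9.57, then 9.48 and 9.55, and 10.05 and 9.63, then 9.16 and 9.21, and did not pass (-0.55 ± 0.20, adjusted p = 0.0862).

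Tryptophan breakdown held the largest change among the 42 enzymes. Afmid, which hydrolyses formylkynurenine to kynurenine, read 9.28 and 9.39 in wild type at 0 h and 5.88 and 6.40 at 24 h, and in null-labelled liver 9.33 and 9.21 at 0 h and 6.13 and 6.08 at 24 h. The mean response was -3.18 ± 0.13 (adjusted p = 0.000795), a 9.05-fold fall, at -3.19 ± 0.19 in wild type and -3.17 ± 0.19 in null-labelled liver. Its further probe sets fell by 3.06 and 1.33. Afmid lies head to head with Tk1, which makes thymidine monophosphate for DNA synthesis. Their annotated starts are 95 bases apart and the gene spans overlap. Tk1 read 6.75 and 6.85, then 3.43 and 4.83 in wild type, and 6.75 and 7.03, then 6.20 and 5.94 in null-labelled liver. It fell in wild type (-2.67 ± 0.43, adjusted p = 0.0244) and had a response of -0.81 in null-labelled liver (adjusted p = 0.242). The difference of these responses, 1.86 ± 0.61, did not pass (adjusted p = 0.556). The lowest wild type value lies below the limit of the filter on low signal, so the size of the fall in wild type is uncertain. Which bases the probes read is not known here.

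Downstream of Afmid, Kynu cleaves the kynurenines and Haao opens the ring of hydroxyanthranilate on the way to NAD. Haao read 10.93 and 10.92, then 9.29 and 9.60 in wild type, and 10.91 and 10.84, then 9.40 and 9.09 in null-labelled liver. All 24 h arrays were lower, by 1.56 ± 0.12 in the mean response (adjusted p = 0.00227), and the response of each genotype passed. Kynu read 9.74 and 9.62, then 7.62 and 8.56, and 9.72 and 9.63, then 9.01 and 8.17, with wider spread at 24 h and a mean response of -1.34 ± 0.27 (adjusted p = 0.0169, lost under 5 of 18 other settings). Kmo, which hydroxylates kynurenine, stayed between 10.35 and 10.66 on all arrays (0.04 ± 0.08, adjusted p = 0.748). Tdo2, which opens the ring of tryptophan, did not pass at its brightest probe set (-0.33 ± 0.11, adjusted p = 0.072), whereas its 2 dimmer probe sets fell by 0.89 (adjusted p = 0.00461) and 0.66 (adjusted p = 0.0145).

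In tyrosine catabolism the 3 enzymes after the transaminase fell. Fah, the last step, read 11.89 and 11.83, then 10.98 and 11.16 in wild type, and 11.87 and 11.67, then 10.70 and 10.62 in null-labelled liver, a mean response of -0.95 ± 0.09 (adjusted p = 0.00325). Hpd, which makes homogentisate, read 12.83 and 12.91, then 11.87 and 12.24, and 12.94 and 12.78, then 12.15 and 11.76 (-0.86 ± 0.14, adjusted p = 0.00914). Hgd, which opens homogentisate, read 11.76 and 11.67, then 10.32 and 10.96, and 11.69 and 11.55, then 11.33 and 10.73 (-0.83 ± 0.20, adjusted p = 0.0263, lost under 8 of 18 other settings). For all 3 the times did not overlap. Tat, the transaminase that starts the pathway and is induced by glucocorticoids, lay between 11.26 and 11.94 on all arrays, and its mean response of 0.35 ± 0.14 did not pass (adjusted p = 0.117).

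In the methionine cycle Mat1a, which makes S-adenosylmethionine in mature liver, rose in the mean response. There 4 of the other 5 enzymes of the cycle and of transsulfuration fell. Mat1a read 11.41 and 11.39, then 12.60 and 12.78 in wild type, and 11.70 and 11.32, then 12.58 and 12.39 in null-labelled liver. The times were apart by more than the spread within any group, at 1.13 ± 0.12 (adjusted p = 0.00353). Gnmt, which consumes S-adenosylmethionine by methylating glycine, read 12.92 and 12.82, then 12.23 and 12.35, and 12.72 and 12.67, then 12.13 and 12.16 (-0.57 ± 0.08, adjusted p = 0.00718). Cbs, which joins homocysteine to serine, read 10.57 and 10.55, then 8.88 and 9.48, and 10.69 and 10.63, then 9.88 and 9.34 (-1.22 ± 0.18, adjusted p = 0.00776). Gnmt and Cbs fell in the response of each genotype. Ahcy, which splits adenosylhomocysteine, fell by 0.35 ± 0.08 (adjusted p = 0.026, lost under 8 of 18 other settings) and Cth, which releases cysteine from cystathionine, by 0.71 ± 0.15 (adjusted p = 0.0186, lost under 4 of 18). Cth passed in wild type only (-1.41, against 0.00 in null-labelled liver) and Ahcy in null-labelled liver only (-0.54, against -0.16 in wild type). The difference between genotypes did not pass for either. Bhmt, which returns homocysteine to methionine, lay between 13.08 and 13.35 on all arrays (-0.04 ± 0.10, adjusted p = 0.774). This is near the brightest signals, which quantile normalisation holds alike between arrays, so a change there could be understated.

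Sardh and Dmgdh remove methyl groups left from choline. Sardh read 11.05 and 11.03, then 9.72 and 9.97 in wild type, and 11.07 and 10.90, then 9.60 and 9.36 in null-labelled liver, a mean response of -1.35 ± 0.11 (adjusted p = 0.0025), with -1.85 at its further probe set. Dmgdh read 10.80 and 10.76, then 10.29 and 10.48, and 10.59 and 10.55, then 10.43 and 10.26. Its 24 h arrays were lower throughout, but it did not pass (-0.31 ± 0.09, adjusted p = 0.053).

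Both enzymes from cysteine to taurine fell. Csad, which decarboxylates cysteine sulfinate, read 10.17 and 10.55, then 7.40 and 8.39 in wild type, and 9.57 and 10.25, then 7.88 and 7.53 in null-labelled liver. Its mean response of -2.33 ± 0.28 (adjusted p = 0.00438) was the largest after Afmid. Cdo1, which oxidises cysteine, read 12.01 and 11.95, then 11.45 and 11.73, and 11.94 and 11.86, then 11.35 and 11.55, a smaller change (-0.42 ± 0.11, adjusted p = 0.0326) that lost its call under 9 of 18 other settings (adjusted p up to 0.101).

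For serine and glycine, Agxt, which detoxifies glyoxylate in peroxisomes, fell and read 10.80 and 10.68, then 10.19 and 10.26 in wild type, and 10.84 and 10.59, then 9.51 and 9.46 in null-labelled liver (-0.87 ± 0.10, adjusted p = 0.00369). Shmt1, the cytosolic enzyme that interconverts serine and glycine, read 9.77 and 9.63, then 8.72 and 9.17, and 9.42 and 9.30, then 9.09 and 8.44. It fell by 0.68 ± 0.18 (adjusted p = 0.0388), with the call lost under 9 of 18 other settings (adjusted p up to 0.11). Gldc, of the mitochondrial glycine cleavage system, read 9.42 and 9.28, then 9.48 and 9.46, and 9.14 and 9.25, then 9.61 and 9.62, and did not pass (0.27 ± 0.08, adjusted p = 0.0588).

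The first 3 steps of histidine breakdown fell in the mean response. Hal, which removes ammonia from histidine, read 10.52 and 10.38, then 7.31 and 8.74 in wild type, and 10.35 and 10.32, then 9.68 and 10.15 in null-labelled liver. The null-labelled arrays at 24 h lay close below those at 0 h, while the wild type ones lay far below (mean response -1.43 ± 0.32, adjusted p = 0.0225, lost under 5 of 18 other settings). Uroc1, which hydrates urocanate, read 10.60 and 10.73, then 9.62 and 9.83, and 10.95 and 10.85, then 9.95 and 9.79 (-0.99 ± 0.10, adjusted p = 0.00325). Amdhd1, the imidazolonepropionase, read 9.98 and 9.94, then 7.69 and 8.26, and 10.02 and 10.04, then 8.43 and 8.75 (-1.71 ± 0.15, adjusted p = 0.00297). Hal and Amdhd1 are neighbours on chromosome 10, 6576 bases apart. Ftcd, which passes the formimino group to folate, did not pass (-0.15 ± 0.08, adjusted p = 0.2).

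Proline and lysine breakdown moved apart. Prodh, which oxidises proline, read 9.31 and 9.36, then 7.82 and 8.17 in wild type, and 9.66 and 9.33, then 8.43 and 8.08 in null-labelled liver (-1.29 ± 0.14, adjusted p = 0.00386). Aldh4a1, the following dehydrogenase, read 9.31 and 9.39, then 7.69 and 8.25, and 9.33 and 9.24, then 8.44 and 7.93 (-1.24 ± 0.17, adjusted p = 0.0064). Aass, which starts lysine breakdown, rose, reading 10.55 and 10.48, then 11.53 and 11.48, and 10.71 and 10.57, then 11.46 and 11.76 (0.98 ± 0.10, adjusted p = 0.0033). For these 3 enzymes the times did not overlap and the response of each genotype passed.

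Of 6 enzymes for branched chain amino acids and propionyl-CoA, 5 fell. Bckdha, the alpha subunit of the branched chain ketoacid decarboxylase, read 9.41 and 9.48, then 8.11 and 8.44 in wild type, and 9.46 and 9.46, then 8.09 and 8.10 in null-labelled liver (-1.27 ± 0.10, adjusted p = 0.0025). The partner subunit Bckdhb fell by 0.49 ± 0.08 (adjusted p = 0.00943) and the core transacylase Dbt by 0.82 ± 0.09 (adjusted p = 0.00344), so all measured subunits particular to that complex were lower. Ivd, which acts on the leucine skeleton, read 9.41 and 9.46, then 7.61 and 8.17, and 9.58 and 9.54, then 8.17 and 8.09 (-1.49 ± 0.14, adjusted p = 0.00307). Pcca, the biotin-carrying subunit of propionyl-CoA carboxylase, read 9.71 and 9.60, then 8.38 and 8.67, and 9.51 and 9.68, then 8.54 and 8.38 (-1.13 ± 0.11, adjusted p = 0.00307). Its second, dim probe set was at -0.09 (adjusted p = 0.797), and Pccb, the other subunit, at -0.19 ± 0.09 (adjusted p = 0.152).

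**Figure D2:**
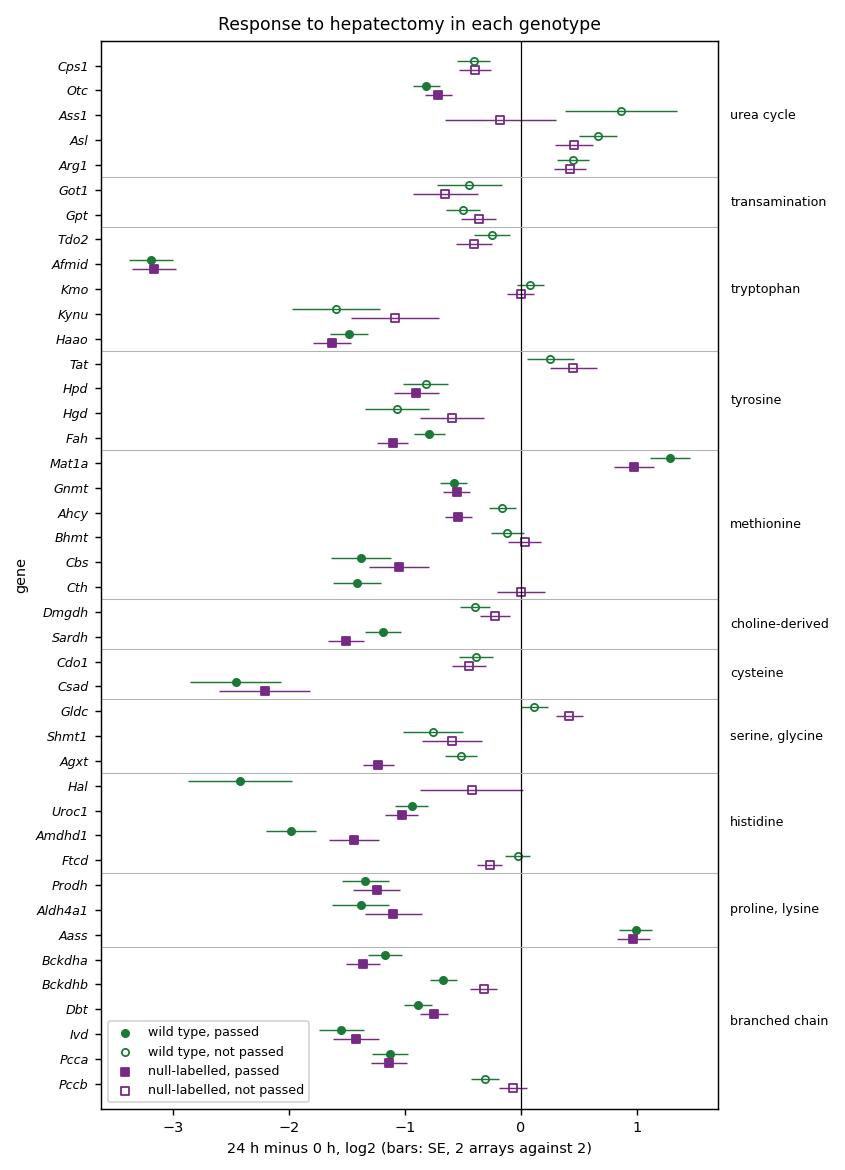
The response to hepatectomy (24 h minus 0 h, log2) of each of the 42 enzymes in wild type and null-labelled liver, with bars of 1 standard error, 2 arrays against 2, and filled points for those that passed. Afmid lies at -3.19 and -3.17 in the 2 genotypes, while Cth (-1.41 and 0.00) and Hal (-2.43 and -0.43) are drawn farther apart.

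Of 13 enzymes with more than 1 kept probe set, the 18 further probe sets all had the sign of the brightest in the mean response. Not all of them passed. The further probe sets of Gpt (adjusted p = 0.324), Hgd (0.0598), Kynu (0.143) and Pcca (0.797) and the dimmest of Shmt1 (0.31) did not. Agreement of sign was not counted over all genes. The enzymes were also sorted by location and cofactor. Of 15 mitochondrial enzymes 10 fell and 1 rose (median -0.77), and of the other 27, 18 fell and 3 rose (median -0.68). Of 10 enzymes that use pyridoxal phosphate 7 fell and 0 rose (median -0.69), and of the other 32, 21 fell and 4 rose (median -0.67). Of 9 enzymes listed here as highest around the portal vein 4 fell and 2 rose, with a median of -0.15. Of the other 33, 24 fell and 2 rose, with a median of -0.77. The 2 that rose among the 9 were Asl and Arg1. The 9 were Cps1, Ass1 (at its dim probe set), Asl, Arg1, Gldc, Agxt, Hal, Uroc1 and Ftcd, so they overlap the urea cycle enzymes above. Otc, with a mean response of -0.77, was not put in this list and counts among the other 33. These property lists were not tested against each other.

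Further genes of the same pathways, a list also fixed with earlier results of these data known, were mostly lower. Of 77 listed, 65 were measured, and in the mean response 36 fell and 3 rose, with a median of -0.44 (-0.04 over all genes, 28.8% called). The counts were 23 fallen and 1 risen in wild type, and 22 fallen and 2 risen in null-labelled liver. Among those with the smallest p in both single genotypes, Pipox, the peroxisomal sarcosine oxidase, had a mean response of -1.46 (adjusted p = 0.00288), Aldh1l1, which oxidises formyl-folate, -0.87 (adjusted p = 0.00298), Dhtkd1, of the lysine and tryptophan route, -1.29 (adjusted p = 0.00307), and Hibadh, of valine breakdown, -0.91 (adjusted p = 0.00308). Others of the 8 with the smallest p in a response were Aldh6a1 (-0.93), Mmut (-0.78), Aadat (-1.29), Slc38a3 (-0.97), Slc7a2 (-0.98), Prodh2 (-1.02) and Acad8 (-1.04), and all of these fell in the mean response.

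The branched chain complex is switched on by the phosphatase Ppm1k and off by the kinase Bckdk, both picked here after their values were seen. Ppm1k read 9.60 and 9.50, then 6.03 and 7.65 in wild type, and 9.40 and 9.43, then 7.67 and 6.63 in null-labelled liver, a mean response of -2.49 ± 0.40 (adjusted p = 0.00933). Bckdk read 6.77 and 6.49, then 6.99 and 6.95, and 6.60 and 6.57, then 6.92 and 7.17, and rose by 0.40 ± 0.11 (adjusted p = 0.0385). Dld, the shared dehydrogenase subunit, rose by 0.61 in the mean response (adjusted p = 0.0121), and Gpt2, the mitochondrial alanine transaminase, by 0.68 (adjusted p = 0.0423), at 1.24 in wild type and 0.12 in null-labelled liver. Slc25a15, the mitochondrial ornithine carrier, rose in null-labelled liver (0.53, adjusted p = 0.0467) and was at -0.04 in wild type. The difference between genotypes did not pass for Gpt2 or Slc25a15 (adjusted p = 0.556 for each).

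Of 9 measured transcriptional and hormonal regulators of these enzymes, 5 fell and 1 rose in the mean response. Over all genes 15.0% were called lower and 13.8% higher. The regulator that rose was Ppargc1a, with a mean response of 0.44. It read 5.34 and 5.05, then 5.73 and 5.33 in wild type, and 5.18 and 5.22, then 5.70 and 5.81 in null-labelled liver. Cebpa, a factor of the mature hepatocyte, read 10.25 and 10.44, then 8.72 and 9.22 in wild type, and 10.85 and 10.75, then 9.13 and 8.52 in null-labelled liver (-1.68 ± 0.18, adjusted p = 0.00377). The glucocorticoid receptor gene Nr3c1 fell by 0.59 (adjusted p = 0.00998), the glucagon receptor gene Gcgr by 0.59 (adjusted p = 0.0121) and Hnf4a by 0.34 (adjusted p = 0.0356).

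**Figure D3:**
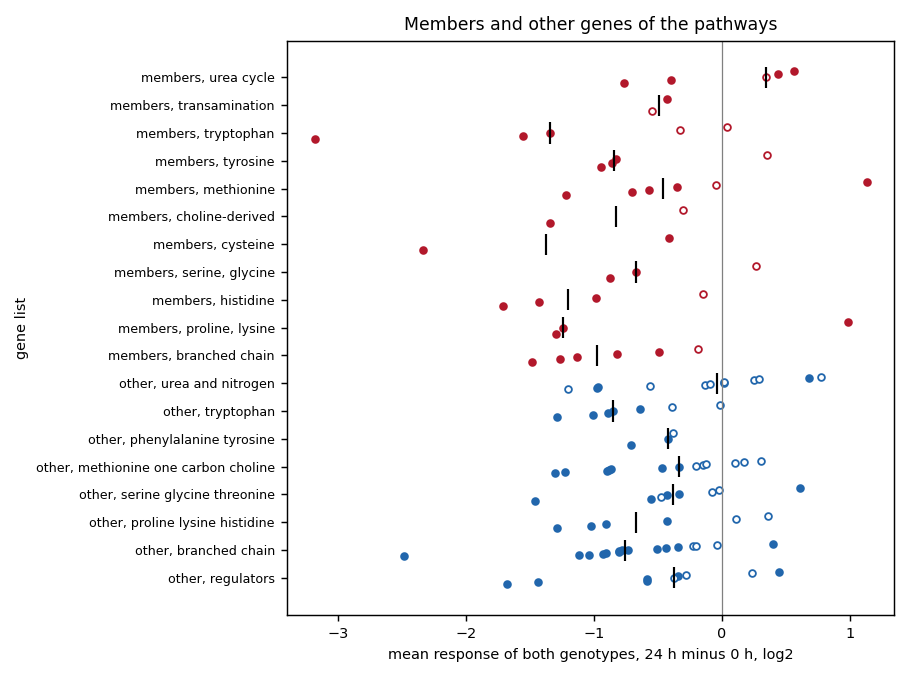
Mean response of both genotypes (24 h minus 0 h, log2) for every measured enzyme and further pathway gene, 1 point a gene (filled where it passed), a row for each gene list and a black line at its median. Points left of 0 are lower at 24 h, and they outnumber those to the right in most lists, while the urea cycle enzymes lie on both sides of 0.

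Between genotypes no enzyme passed at 0 h, at 24 h or for the difference of responses. The background was 0% of genes at 0 h, 0.00692% (1 gene) at 24 h and 0% for the difference, and at an unadjusted limma p under 0.05 the enzymes numbered 1, 6 and 3 of 42, and all genes 1390, 1695 and 1244 of 14450. With a trended and robust prior in limma, 0, 2 and 0 enzymes passed, among 13, 109 and 10 of all genes, and the pair at 24 h was Cth (adjusted p = 0.0236) and Agxt (adjusted p = 0.0224). At 0 h the 4 smallest p belonged to Pccb (-0.37 ± 0.12, null-labelled minus wild type, adjusted p = 0.478), Bckdhb (-0.22 ± 0.11, adjusted p = 0.595), Uroc1 (0.23 ± 0.14, adjusted p = 0.646) and Dmgdh (-0.21 ± 0.13, adjusted p = 0.666). Pccb read 10.22 and 10.05 in wild type and 9.72 and 9.82 in null-labelled liver, so its arrays did not overlap. Such separation between genotypes was seen for 14 enzymes lower and 8 higher in null-labelled liver at 0 h (23.9% and 24.2% of all genes) and for 13 lower and 7 higher at 24 h (19.7% and 20.9% of all genes).

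At 24 h the smallest p were those of Cth, Agxt, Hal and Fah, from the same 24 h arrays that enter the responses. Cth read 11.71 and 11.66 in wild type at 0 h and 10.05 and 10.48 at 24 h, and 11.58 and 11.46, then 11.31 and 11.74 in null-labelled liver. The null-labelled arrays thus overlapped between times, while the wild type ones were lower at 24 h. At 24 h Cth was 1.26 ± 0.21 higher in null-labelled liver (95% interval 0.75 to 1.77, unadjusted p = 0.000917, adjusted p = 0.192, limma), and the responses differed by 1.42 ± 0.29 (adjusted p = 0.522). Hal was 1.88 ± 0.45 higher at 24 h (adjusted p = 0.258), with responses that differed by 2.00 ± 0.63 (adjusted p = 0.556). Agxt went the other way, 0.74 ± 0.13 lower in null-labelled liver at 24 h (-0.74, adjusted p = 0.192), with responses that differed by -0.72 ± 0.19 (adjusted p = 0.543). Fah was at -0.41 ± 0.13 at 24 h (adjusted p = 0.341).

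The fourth gene by p for the difference of responses was Ahcy, at -0.38 ± 0.16 (adjusted p = 0.586). It read 12.37 and 12.37, then 12.17 and 12.25 in wild type, and 12.46 and 12.35, then 11.83 and 11.90 in null-labelled liver, lower at 24 h on all arrays. With 2 arrays a group these differences are not settled, and a p above the threshold does not show that the genotypes were alike.

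**Figure D4:**
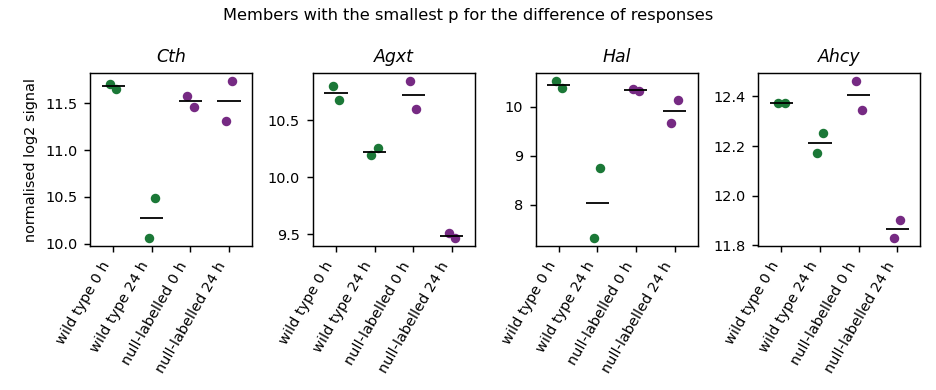
Normalised log2 signal of Cth, Agxt, Hal and Ahcy, the enzymes with the smallest p for the difference of responses, in the 4 groups, with 1 point an array and a line at each group mean. The null-labelled 24 h arrays of Cth (11.31 and 11.74) and Hal (9.68 and 10.15) lie above the wild type ones (10.05 and 10.48, and 7.31 and 8.74), and those of Agxt (9.51 and 9.46) below (10.19 and 10.26).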

How the data were processed

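Liver RNA was hybridised to 8 one-colour Affymetrix arrays. The values deposited by the authors were on a log2 scale, judged from their range, and the algorithm behind the signals was not named in the sources used here. The 64 control probe sets among 45101 did not enter the fit. Values were quantile normalised between arrays, and probe sets above the 40th percentile in at least 2 of 8 arrays (limit 3.60) were kept. Gene names came from GEO's platform annotation (34958 probe sets with 1 symbol, 932 with several and 9147 with none listed).

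A model with a mean for each of 4 groups was fitted to 14450 genes with limma 3.58.1 in R 4.3.3 (4 residual and 2.01 prior degrees of freedom), and p-values, two-sided, were adjusted over all genes. The script was tested on simulated data. The number of arrays limits the precision. The enzymes and lists were chosen with earlier results of these data known. Enzymes that passed were named by smallest p, up to 30 a comparison (the 4 smallest p where none passed). Array values were given for the urea cycle and for up to 3 enzymes of each other pathway, by smallest p in the mean response. Of further pathway genes, up to 8 that passed in a response were named, and up to 4 regulators, with Ppargc1a added as the regulator that rose. The alternatives changed the scaling, the filter, the probe set rule, the prior, array weights, the replicate block, the samples, the threshold and the damping of low signals.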

Additional observations from a re-analysis of the deposited data

How the results depend on the processing

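Of 32 enzymes called in the mean response, none changed direction and 19 kept their call under all 18 alternatives tried. Single-genotype calls of each enzyme, further pathway genes, regulators, markers and Tk1 were not rerun gene by gene. The number called was 32 in wild type with a trended and robust prior (2592 of all genes) and 0 with only the groups compared (2 of all genes), against 21 (1331 of all genes), and leaving out 1 array gave 0 to 23. In null-labelled liver it was 0 with only the groups compared (0 of all genes), against 21 (2121 of all genes), and leaving out 1 array gave 1 to 20. In the mean response leaving out 1 array gave 21 to 30, against 32. At 24 h the trended prior called 2 enzymes between genotypes, against 0. These fits kept the normalisation of all 8 arrays, and a lone array was assumed to vary like the others. Fits of the compared groups alone or without an array rest on fewer arrays, and the cause of the other shifts was not tested.

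Replicate numbers did not pair the arrays (correlations of replicate differences from -0.197 to 0.051). With the replicate number as a block, 11 enzymes were called in wild type, 16 in null-labelled liver and 27 in the mean response, among 332, 903 and 3279 of all genes.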
